A study of Mus musculus with 6 samples.

Results

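The expression of 10 immediate early response genes was followed in mouse liver, the genes being taken as the rows of the deposited count table whose gene name was Fos, Fosb, Jun, Egr1, Ier2, Ier3, Btg2, Klf6, Zfp36 or Myc. All 10 were found once each among the 25904 genes of the table, and all 10 were among the 14606 genes with enough reads to be tested. Polyadenylated RNA was sequenced from 3 livers heterozygous for Ptprd (Ptprd+/-) and 3 wild-type livers (Ptprd+/+), all from mice of the C57BL/6J strain. Ptprd encodes a receptor-type protein tyrosine phosphatase, and the title of the series links its impairment to metabolic disease of the liver. The sources used here do not give the kind of altered allele, the sex, age or feeding state of the animals or the hour of collection, and no treatment is named in the labels. Nothing in the labels says that the 3 livers of a genotype came from separate mice, so p-values measure the spread between these samples, which may be technical.

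Immediate early genes are transcribed within minutes of a growth factor, cytokine, stress or feeding signal, without new protein synthesis. Signals that run through the MAP kinases and protein kinase A act on factors already bound at their promoters, such as SRF with its ETS partners and CREB, and the messages produced are short-lived. In liver the family is known for its response to partial hepatectomy, injury and tissue handling. Fos, Fosb and Jun encode subunits of the AP-1 transcription factor, Egr1, Klf6 and Myc encode other DNA-binding factors, and Ier2, Ier3, Btg2 and Zfp36 encode proteins that act on growth, survival and messenger RNA decay.

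The promoters of 7 of the 10 genes, all but Egr1, Ier2 and Myc, were found in the RefSeq promoter table (GRCm38.p6). Each was read over the 250 bases before the annotated start and searched on both strands for 5 motifs known from promoters of this family. These were the CArG box bound by SRF, the CRE-like motif TGACNTCA, the AP-1 motif TGANTCA, the CCAAT box and TATAAA. TGACNTCA is longer than TGANTCA by 1 base, so a match to one is not a match to the other, and none of the matches in the 7 windows overlapped. The 4 promoters below are shown because Fos is the gene that names the family, Jun had the widest spread between libraries among the matched genes, Btg2 held 2 CRE-like matches and Zfp36 held the CArG box. Capitals mark the motif matches, and each line reads 5′ to 3′ on the strand of the gene. Their windows are chr12:85473640-85473889 on the plus strand for Fos, and, on the minus strand, chr4:95052223-95052472 for Jun, chr1:134079156-134079405 for Btg2 and chr7:28379229-28379478 for Zfp36.
Fos: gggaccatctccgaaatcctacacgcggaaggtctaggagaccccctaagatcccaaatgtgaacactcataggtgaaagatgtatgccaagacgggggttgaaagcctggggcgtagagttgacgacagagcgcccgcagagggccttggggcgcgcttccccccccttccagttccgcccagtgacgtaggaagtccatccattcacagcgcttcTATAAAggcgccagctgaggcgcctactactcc
Jun: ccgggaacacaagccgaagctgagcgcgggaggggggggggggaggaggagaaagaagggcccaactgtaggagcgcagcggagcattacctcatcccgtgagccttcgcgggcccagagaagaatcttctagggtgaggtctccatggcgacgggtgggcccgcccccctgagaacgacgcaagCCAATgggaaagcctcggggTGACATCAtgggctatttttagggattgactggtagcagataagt
Btg2: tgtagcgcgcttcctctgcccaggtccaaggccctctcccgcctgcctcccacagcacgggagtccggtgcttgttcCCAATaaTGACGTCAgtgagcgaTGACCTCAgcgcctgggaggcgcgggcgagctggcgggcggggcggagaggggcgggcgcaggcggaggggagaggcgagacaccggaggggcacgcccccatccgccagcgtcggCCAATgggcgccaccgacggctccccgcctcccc
Zfp36: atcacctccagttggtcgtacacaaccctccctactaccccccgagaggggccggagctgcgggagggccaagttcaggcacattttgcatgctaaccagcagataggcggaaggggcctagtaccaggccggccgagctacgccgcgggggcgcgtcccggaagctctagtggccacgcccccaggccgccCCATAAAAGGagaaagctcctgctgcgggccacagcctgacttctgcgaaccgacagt

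TGACNTCA was found in 3 of the 7 windows, those of Jun, Btg2 and Klf6, and 7.49% of all 32851 windows of this length held it. The CArG box was found in 1 window, that of Zfp36, against 1.47% of all windows. CCAAT was found in 4 windows, those of Jun, Ier3, Btg2 and Klf6, where 33.8% of all windows held it. TATAAA was found in the Fos window alone, with 12.4% of all windows holding it, and TGANTCA in 0 of 7, with 6.75% of all windows. Bases further from the start were not searched. Sequences that resemble a motif without matching it, such as tgacgtag in the Fos window, were not counted. A window without a match, that of Fos included, therefore does not show that the gene lacks such a site. The 7 windows had a GC content of 54.4 to 73.2%, and the median over all windows was 52.4%. The Zfp36 window lies inside the gene's span in the count table, because RefSeq places the start of the gene further in.

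Library depth ranged from 37924266 to 72954187 counts, deepest in Ptprd+/- 3, and values below are CPM, reads of a gene scaled to the effective size of its library. Ptprd itself had 54.1, 78.1 and 63.4 CPM in Ptprd+/- livers, against 128, 127 and 132 CPM in Ptprd+/+ livers, so each library matched its label. Markers of hepatocytes (5 of 5 detected in every library) summed to 142600 to 174800 CPM in Ptprd+/- livers and 119100 to 143500 CPM in Ptprd+/+ livers. Kupffer cell markers (7 of 7) summed to 283 to 526 CPM in Ptprd+/- livers and 387 to 594 CPM in Ptprd+/+ livers, and leukocyte markers (5 of 5) to 8.24 to 13.6 CPM in Ptprd+/- livers and 12.2 to 20.8 CPM in Ptprd+/+ livers. Sinusoidal endothelial markers (5 of 5) summed to 196.5 to 257 CPM in Ptprd+/- livers and 213 to 245 CPM in Ptprd+/+ livers, and stellate cell markers (5 of 5) to 226 to 255 CPM in Ptprd+/- livers and 249 to 299 CPM in Ptprd+/+ livers. The sums follow the most abundant markers. By fitted level, 4 of 5 hepatocyte markers were higher in Ptprd+/- livers. So were 1 of 7 Kupffer cell, 1 of 5 leukocyte, 2 of 5 endothelial and 1 of 5 stellate cell markers. The rest were lower. Marco, of the Kupffer cell list, had 37.1, 10.9 and 28.1 CPM in Ptprd+/- livers, against 93.5, 69.9 and 53.8 CPM in Ptprd+/+ livers. Its libraries did not overlap (adjusted p 0.648 by edgeR), as in 6.72% of all tested genes in that direction. No marker of these lists was at 0 in any library, and the part of these cells in the results was not tested. In bulk tissue, fewer cells of a type and less RNA per cell cannot be told apart. Clock output genes divided the Ptprd+/- livers, with Dbp at 13.5, 129 and 122 CPM there and at 18.9, 29.6 and 14.4 CPM in Ptprd+/+ livers. Of 16 clock genes, 10 had a higher and 6 a lower fitted level in Ptprd+/- livers, their median log2 fold change was 0.31, and 5 had an unadjusted p under 0.05, where 7.15% of all tested genes had. Named by smallest unadjusted p, these included Nr1d1, Dbp and Bhlhe41, with log2 fold changes of 1.54, 2.07 and 1.53, and Clock, with -0.66. Of the 16, 0 passed edgeR's adjusted test. Without the filter on low counts Nr1d1 and Dbp did pass it (adjusted p 0.0119 and 0.0241 by edgeR). The value of Bhlhe41 was 0.90 without Ptprd+/- 3, and those of Dbp, Bhlhe41, Nr1d1 and Clock were -0.64, -0.11, 0.36 and -0.27 without both Ptprd+/- 2 and Ptprd+/- 3.

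No difference between the genotypes was detected for any of the 10 genes. By edgeR's quasi-likelihood test 0 of 10 passed an adjusted p of 0.05, where 0% of all tested genes passed, and 0 of 10 had an unadjusted p under 0.05, where 7.15% of all tested genes had. Ptprd itself, with a log2 fold change of -0.99, did not pass edgeR's adjusted test (adjusted p 0.298), though DESeq2 called it (adjusted p 2.86e-06). A missing call by edgeR therefore does not show that a gene was unchanged. DESeq2 gave an adjusted p for 6 of the 10, not for Fos, Fosb, Ier3 and Myc, and called 0 of them, against 0.515% of the genes it tested. By limma-voom 0 of the 10 passed the adjusted test or had an unadjusted p under 0.05, where 0% and 7.33% of all tested genes did. In 0 of 10 did all libraries of one genotype lie beyond all libraries of the other, a separation that 13.9% of all tested genes showed. In Ptprd+/- livers 5 genes had a higher fitted level and 5 a lower one. The median log2 fold change, Ptprd+/- over Ptprd+/+, was -0.0735 over the 10 genes and -0.0039 over all tested genes. For the 10 genes its sign was not fixed, as it was 0.11 by limma-voom, 0.070 with the replicate number as a block and 0.012 over the 8 genes left where 1 CPM was required in 3 or more libraries. Permuting the genotypes of 3 and 3 libraries allows no two-sided exact p smaller than 0.1, and the 10 genes gave exact permutation p values of 0.3 to 0.9.

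**Figure D1:**
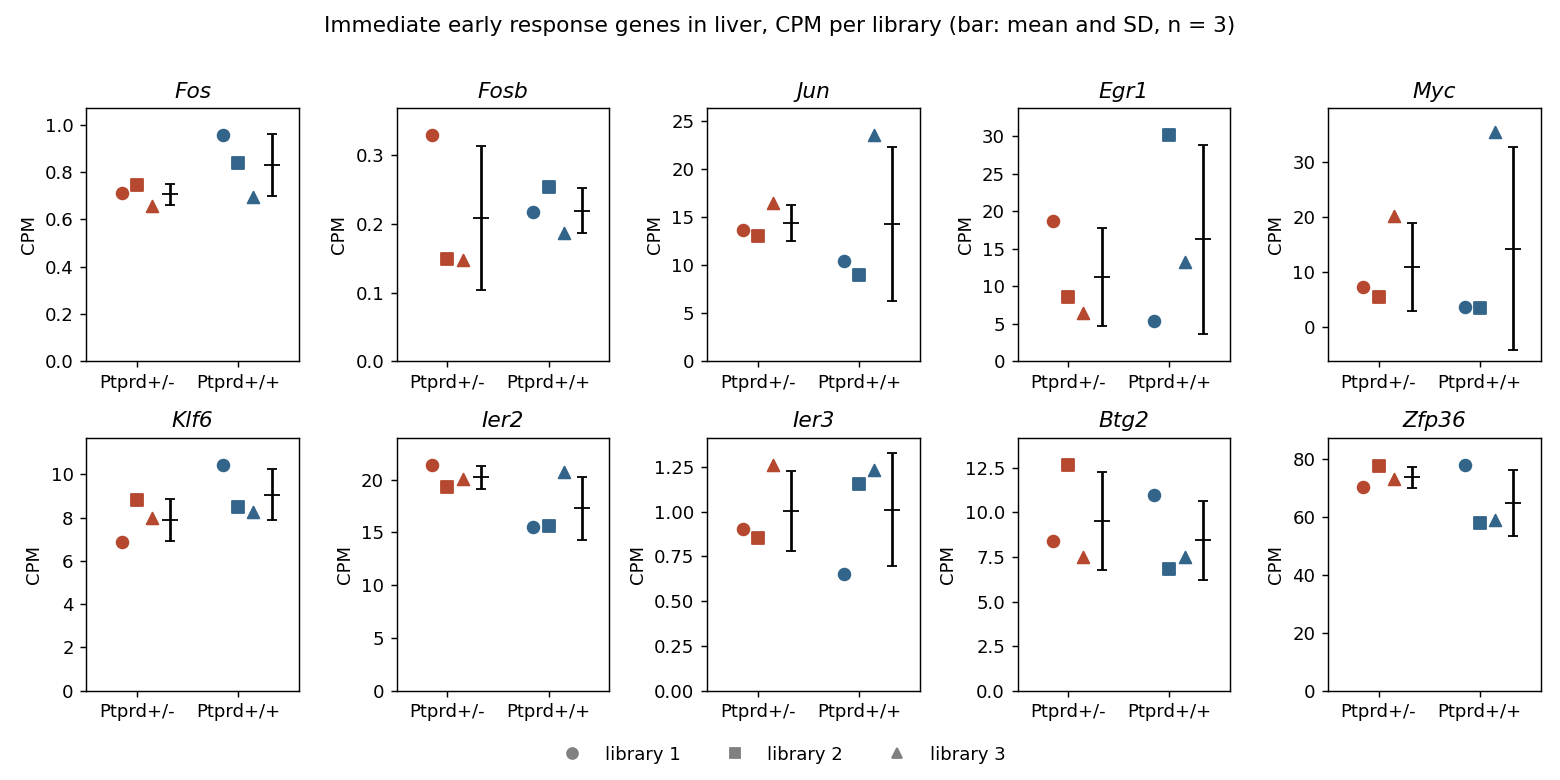
CPM (vertical axis, from 0 except for Myc, where the error bar passes below 0) of each of the 10 genes in the 3 Ptprd+/- livers (red) and 3 Ptprd+/+ livers (blue), with symbols for the library number and a bar for the mean and SD. The 2 genotypes overlap in every panel, and the highest Myc points are the library numbered 3 of each genotype, at 20.2 CPM in Ptprd+/- and 35.6 CPM in Ptprd+/+.

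Among the AP-1 subunits, Fos (ENSMUSG00000021250, chr12:85473890-85477273 in mm10) was close to the lower limit of measurement. It had 26, 35 and 49 reads in the Ptprd+/- livers and 44, 43 and 26 reads in the Ptprd+/+ livers. These reads correspond to 0.713, 0.745 and 0.658 CPM in Ptprd+/- livers and 0.955, 0.840 and 0.696 CPM in Ptprd+/+ livers. The exact Poisson 95% intervals of all 6 libraries, which cover counting error only, share the range 0.694 to 0.869 CPM, so no library stood apart from another at this depth. Fos had a log2 fold change of -0.24 (SE 0.25, adjusted p 0.839 by edgeR's quasi-likelihood test). Its 95% interval, -0.82 to 0.33, leaves room for a level between 0.566 and 1.26 times that of Ptprd+/+ livers.

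Fosb (ENSMUSG00000003545, chr7:19302696-19310051), the close relative of Fos, was the scarcest of the 10 genes. It had 12, 7 and 11 reads in Ptprd+/- livers and 10, 13 and 7 reads in Ptprd+/+ livers, or 0.329, 0.149 and 0.148 CPM in Ptprd+/- livers and 0.217, 0.254 and 0.187 CPM in Ptprd+/+ livers. Ptprd+/- 1 was the highest library, yet the counting intervals of all 6 overlapped. Its log2 fold change of -0.16 (95% interval -1.16 to 0.85) therefore says little about the gene in either direction.

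Jun (ENSMUSG00000052684, chr4:95049034-95052222), the partner with which FOS proteins bind DNA, was far more abundant. It had 13.6, 13.01 and 16.5 CPM in Ptprd+/- livers, against 10.4, 8.95 and 23.5 CPM in Ptprd+/+ livers. The Ptprd+/- libraries lay together in the middle, while the Ptprd+/+ libraries held both the lowest values and the highest. Jun had a log2 fold change of 0.015 (SE 0.33, adjusted p 0.996 by edgeR) and its 95% interval ran from -0.75 to 0.78. Without Ptprd+/+ 3, the log2 fold change was 0.57 and all 3 Ptprd+/- libraries lay above the 2 that remained (unadjusted p 0.00957 and adjusted p 0.752 by edgeR), as for 25.2% of all genes tested in that comparison. Jun lies on the same chromosome as Ptprd, 16.8 Mb beyond its end. An antisense gene, Junos, overlaps Jun and had 9 to 16 reads per library, and the sources do not say whether the counting used strand.

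Of the other genes of AP-1 and MYC complexes, a list of 21 with 20 tested, 14 had a higher fitted level in Ptprd+/- livers and 6 a lower one. The median log2 fold change was 0.057, and 0 passed edgeR's adjusted test. Junb, a JUN relative that also pairs with FOS proteins, had 13.4, 19.1 and 17.4 CPM in Ptprd+/- livers, against 7.90, 11.2 and 8.94 CPM in Ptprd+/+ livers. Every Ptprd+/- library lay above every Ptprd+/+ library, unlike the case of Jun. The log2 fold change of Junb was 0.83 (SE 0.18, 95% interval 0.42 to 1.24), with an adjusted p of 0.531 by edgeR and 0.0119 by DESeq2. Whether Junb and the 10 genes differ in their response was not tested. Ptprd+/- 2 and Ptprd+/- 3, which had the high Dbp, also had the most Junb, and without both the log2 fold change was 0.52 (adjusted p 0.373 by edgeR), a fit that assumes the lone Ptprd+/- library to vary like the others. Jund, Atf2 and Mafg had log2 fold changes of 0.21, -0.19 and 0.24, each with overlapping libraries. Single libraries carried much of these, since Jund was at 0.0065 and Atf2 at -0.09 without Ptprd+/- 1, and Mafg at 0.10 without Ptprd+/- 2.

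Egr1 (ENSMUSG00000038418, chr18:34859823-34864984) encodes a zinc finger factor that binds GC-rich promoters and follows MAP kinase signals. It had 18.7, 8.56 and 6.36 CPM in Ptprd+/- livers, against 5.34, 30.1 and 13.3 CPM in Ptprd+/+ livers. Both the highest and the lowest library were Ptprd+/+, a 5.64-fold range within 1 genotype, and the Ptprd+/- libraries spanned 2.94-fold. The reads behind these values numbered 246 to 1542 per library, so counting error is small beside the range. Egr1 had a log2 fold change of -0.55 (SE 0.60, adjusted p 0.852 by edgeR) with a 95% interval of -1.92 to 0.82. The sign rested on Ptprd+/+ 2: without it the log2 fold change was 0.27, while without Ptprd+/- 1 it was -1.14 and without Ptprd+/+ 1 it was -0.97. Without Ptprd+/- 3 it was -0.26.

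Myc (ENSMUSG00000022346, chr15:61985391-61990374), the growth-promoting factor that drives ribosome and nucleotide synthesis, differed most from library to library. It had 7.32, 5.58 and 20.2 CPM in Ptprd+/- livers, against 3.69, 3.58 and 35.6 CPM in Ptprd+/+ livers. The third library of each genotype was high, and the other 4 lay between 3.58 and 7.32 CPM. The means were 11.0 ± 7.99 CPM in Ptprd+/- livers and 14.3 ± 18.4 CPM in Ptprd+/+ livers (SD, n = 3 each). For Myc edgeR gave a log2 fold change of -0.35 (SE 0.89, adjusted p 0.95), with a 95% interval of -2.39 to 1.69, and limma-voom, which averages on the log scale, gave 0.50. Without Ptprd+/+ 3 it was 1.61 by edgeR (unadjusted p 0.0184, adjusted p 0.763), and without Ptprd+/- 3 it was -1.14. Without both of these libraries, a choice made after seeing the data, it was 0.83 (adjusted p 0.822). With the replicate number as a block and all 6 libraries, edgeR gave 0.23. The direction for Myc thus depended both on the libraries compared and on the method, and DESeq2 gave no p for it.

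Klf6 (ENSMUSG00000000078, chr13:5861482-5870394), a Krüppel-like factor induced by injury, varied little. It had 6.89, 8.81 and 7.998 CPM in Ptprd+/- livers, against 10.4, 8.50 and 8.27 CPM in Ptprd+/+ livers. Ptprd+/- 2 lay among the Ptprd+/+ libraries. Klf6 had a log2 fold change of -0.20 (SE 0.15, adjusted p 0.779 by edgeR), and the 95% interval of -0.55 to 0.15 puts the level in Ptprd+/- livers between 0.684 and 1.11 times that in Ptprd+/+ livers.

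Ier2 (ENSMUSG00000053560, chr8:84661331-84662852), a nuclear growth factor response gene, had the smallest unadjusted p of the 10. It had 21.4, 19.3 and 20.02 CPM in Ptprd+/- livers, against 15.5, 15.6 and 20.7 CPM in Ptprd+/+ livers. The overlap came from Ptprd+/+ 3, which lay within the Ptprd+/- range. Its log2 fold change was 0.23 (SE 0.13, unadjusted p 0.128 and adjusted p 0.737 by edgeR), with a 95% interval of -0.081 to 0.54, whose upper end is a level 1.45 times that of Ptprd+/+ livers.

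Ier3 (ENSMUSG00000003541, chr17:35821684-35822923), a survival and stress gene, had 33, 40 and 94 reads in Ptprd+/- livers and 30, 59 and 46 in Ptprd+/+ livers. Its level was 0.905, 0.851 and 1.26 CPM in Ptprd+/- livers and 0.651, 1.15 and 1.23 CPM in Ptprd+/+ livers. Ptprd+/- 3 and Ptprd+/+ 1 differed by more than counting error. Their 95% Poisson intervals were 1.02 to 1.54 CPM in Ptprd+/- 3 and 0.439 to 0.930 CPM in Ptprd+/+ 1. Its log2 fold change was 0.0088 (95% interval -0.71 to 0.73).

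Btg2 (ENSMUSG00000020423, chr1:134075170-134079120) encodes an antiproliferative protein that recruits the deadenylase complex to messenger RNA. It had 8.42, 12.7 and 7.47 CPM in Ptprd+/- livers, against 11.0, 6.82 and 7.50 CPM in Ptprd+/+ livers. Each genotype had 1 high library, Ptprd+/- 2 and Ptprd+/+ 1. The log2 fold change of 0.17 (SE 0.25, adjusted p 0.889 by edgeR) was -0.083 without Ptprd+/- 2 and 0.41 without Ptprd+/+ 1.

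Zfp36 (ENSMUSG00000044786, chr7:28376784-28380253) encodes tristetraprolin, which binds AU-rich elements and speeds the decay of cytokine and immediate early messages. It was the most abundant of the 10, with 70.4, 77.5 and 73.1 CPM in Ptprd+/- livers, against 77.9, 57.8 and 58.8 CPM in Ptprd+/+ livers. Only Ptprd+/+ 1 kept the genotypes from separating. Zfp36 had a log2 fold change of 0.18 (SE 0.13, adjusted p 0.765 by edgeR), with a 95% interval of -0.12 to 0.49. Without Ptprd+/+ 1 it was 0.34, with all Ptprd+/- libraries above the 2 that remained, as for 21.9% of all genes tested in that comparison. An antisense gene, Gm44710, overlaps Zfp36 and had 7 to 17 reads per library.

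**Figure D2:**
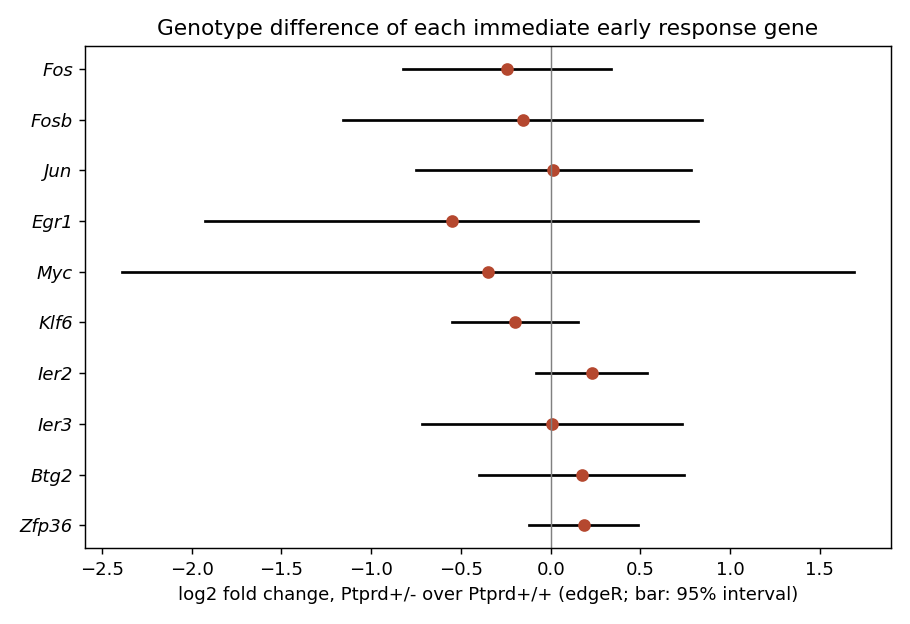
log2 fold change of Ptprd+/- over Ptprd+/+ livers (horizontal axis; points) with its 95% interval (bars) for each of the 10 genes, by edgeR's quasi-likelihood fit on all 6 libraries. Every interval crosses 0, from the narrow ones of Zfp36 (-0.12 to 0.49) and Ier2 (-0.081 to 0.54) to that of Myc (-2.39 to 1.69).

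Levels of different genes were compared per kilobase of exon, with the length of all annotated exons of a gene in GENCODE M21, which has the same coordinates for the 10 genes as the count table. Zfp36 averaged 21.2 CPM per kb in Ptprd+/- livers and 18.7 in Ptprd+/+ livers, and its lowest library (16.7 CPM per kb) lay above the highest library of Ier2 (14.1 CPM per kb). Ier2 averaged 13.3 CPM per kb in Ptprd+/- livers and 11.4 in Ptprd+/+ livers. Myc, Jun, Btg2 and Egr1 followed with overlapping library values, from averages of 4.06, 4.50, 3.47 and 2.498 CPM per kb in Ptprd+/- livers and 5.26, 4.47, 3.07 and 3.62 CPM per kb in Ptprd+/+ livers. The Ptprd+/+ 3 value of Myc, 13.1 CPM per kb, reached the range of Ier2. Klf6, Ier3, Fos and Fosb averaged 1.799, 0.889, 0.300 and 0.0334 CPM per kb in Ptprd+/- livers and 2.07, 0.895, 0.353 and 0.0352 CPM per kb in Ptprd+/+ livers. Klf6 overlapped with Myc and Egr1. From Klf6 down, every library of a gene lay above every library of the next. This order depends on the length used. With the authors' median transcript length Klf6 was the third most abundant and not the seventh, Btg2 was the seventh and not the fifth, and Fos, at a mean of 0.943 CPM per kb over the 6 libraries, stood above Ier3, at 0.892 CPM per kb.

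The 10 genes did not vary as 1 unit across livers. The spread within genotypes was set beside that of all 14606 tested genes, as the pooled SD of log2 CPM, whose median over all genes was 0.206. Myc had a pooled SD of 1.505, above that of 99.8% of tested genes, Egr1 1.05 (99.1%) and Jun 0.542 (90.6%). Fos, Ier2, Zfp36 and Klf6 had pooled SDs of 0.166 to 0.181, above those of 37.9 to 42.8% of tested genes. Fosb, Ier3 and Btg2 lay between, above 82.6%, 81.2% and 79.2% of tested genes, and Fosb and Ier3 had under 100 reads in every library. For 8 of the 10 genes the Ptprd+/- livers had the smaller SD, a difference that was not tested.

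Myc and Jun ranked the 6 libraries alike, from Ptprd+/+ 3 and Ptprd+/- 3 at the top to Ptprd+/+ 2 at the bottom. Relative to its mean over all libraries, log2 CPM of Myc was 1.24 in Ptprd+/- 3 and 2.05 in Ptprd+/+ 3, and that of Jun was 0.27 in Ptprd+/- 3 and 0.78 in Ptprd+/+ 3. Egr1 followed another order, with Ptprd+/- 1 at 0.71, Ptprd+/- 3 at -0.84, Ptprd+/+ 2 at 1.40 and Ptprd+/+ 1 at -1.09. The root-mean-square difference between the library patterns of 2 genes, in log2 units, was 0.814 for Jun and Myc and 1.61 for Egr1 and Myc. The median gene was taken over genes averaging at least 1 CPM, without the 10 members and genes with a Gm number or Rik name. It was at 0.476 from Jun and at 1.24 from Myc. This measure takes in the size of the differences as well as their order. Log2 CPM ranged over 3.3 units for Myc and 1.39 for Jun. Measured from Jun, Myc lay further away than the median gene. Measured from Myc, Jun lay nearer than the median gene. Fos and Klf6 were the closest pair, at 0.122, but the Fos values lay within counting error. The mean pattern of the 10 genes, in log2 units, was 0.075, -0.088 and 0.032 in Ptprd+/- livers and -0.23, -0.069 and 0.28 in Ptprd+/+ livers.

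**Figure D3:**
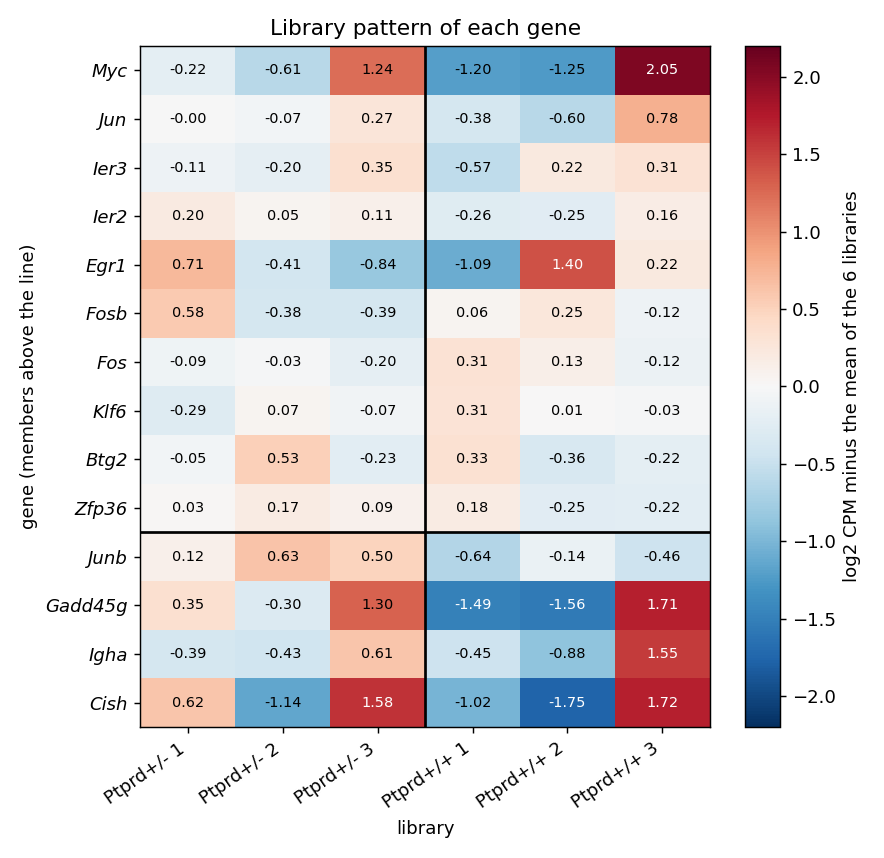
log2 CPM of each gene in each library minus the gene's mean over the 6 libraries (colour and printed value), with Ptprd+/- livers on the left, Ptprd+/+ livers on the right, the 10 genes above the line, and Junb and the 3 genes most like Myc below it. Myc is high in Ptprd+/- 3 (1.24) and Ptprd+/+ 3 (2.05), as are Gadd45g and Cish, while Egr1 is highest in Ptprd+/+ 2 (1.40).

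Genes with the pattern closest to Myc were sought among tested genes averaging at least 1 CPM. The 10 members and genes with a Gm number or Rik name were left out. The closest were Gadd45g, Igha and Cish, with root-mean-square differences of 0.347, 0.486 and 0.501 over the 6 libraries. The median gene was at 1.24. Gadd45g, a stress and growth arrest gene, is also on the list of other immediate early genes described below. It had 20.3, 12.9 and 39.4 CPM in Ptprd+/- livers and 5.64, 5.39 and 52.3 CPM in Ptprd+/+ livers. Cish, an inhibitor of cytokine receptor signalling that STAT5 induces, had 36.9, 10.9 and 72.1 CPM in Ptprd+/- livers and 11.8, 7.09 and 79.1 CPM in Ptprd+/+ livers. Both were highest in the third library of each genotype. Igha encodes the immunoglobulin A heavy chain of plasma cells and had 4.83, 4.68 and 9.66 CPM in Ptprd+/- livers and 4.62, 3.42 and 18.6 CPM in Ptprd+/+ livers. Erythroid markers (3 of 3 detected, none at 0) summed to 94.2 to 138 CPM in Ptprd+/- livers and 84.2 to 221 CPM in Ptprd+/+ livers, and were highest in the same 2 libraries, at 138 CPM in Ptprd+/- 3 and 221 CPM in Ptprd+/+ 3. Cholangiocyte markers (4 of 4 detected, none at 0) summed to 44.6 to 53.8 CPM in Ptprd+/- livers and 47.1 to 60.9 CPM in Ptprd+/+ livers, with the highest sums also in the third library of each genotype. Not every marker followed its sum. The erythroid marker Alas2 was highest in Ptprd+/- 1, at 35.1 CPM. The cholangiocyte marker Sox9 was lowest in Ptprd+/- 3, at 1.57 CPM, and in Ptprd+/+ livers highest in Ptprd+/+ 1, at 2.24 CPM. The other markers of both lists were highest in the third library of each genotype. The part of these cells in the Myc values was not tested.

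For Egr1, the closest genes were Pvt1, Irs2 and Sult5a1, at 0.357, 0.386 and 0.404, with a median gene at 0.892. Irs2, the insulin receptor substrate of fasting liver, had 20.5, 17.5 and 9.501 CPM in Ptprd+/- livers and 7.14, 27.8 and 23.2 CPM in Ptprd+/+ livers. For Jun they were Chp2, Rgs3 and Rgs4, at 0.102, 0.153 and 0.181 with a median gene at 0.476, and both Rgs genes encode proteins that shorten G protein signals. For Ier3 they were Cdc42ep2, Slc7a5 and Nuak2, at 0.0613, 0.0679 and 0.0916 with a median gene at 0.366. For Fos they were Fam45a, Prkar2a and Tm7sf3, at 0.0377, 0.0387 and 0.0442 with a median gene at 0.243, but the Fos pattern lies within counting error and so carries little information.

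A list of 41 other immediate early genes held 36 that were tested, Egr2, Egr3, Nr4a3 and Arc being too low and Fosl1 not analysed here. Of the 36, 21 had a higher fitted level in Ptprd+/- livers and 15 a lower one, with a median log2 fold change of 0.12. By edgeR 0 passed the adjusted test and 2 had an unadjusted p under 0.05, both higher in Ptprd+/- livers, where 3.39% of all tested genes did so in that direction. These were Junb and Socs3. Socs3, the feedback inhibitor of STAT3, had 7.68, 10.7 and 23.8 CPM in Ptprd+/- livers, against 4.84, 6.17 and 9.82 CPM in Ptprd+/+ livers. Its libraries overlapped, and Ptprd+/- 3 lay well above the rest. The log2 fold change of Socs3 was 1.03 with all libraries and 0.41 without Ptprd+/- 3. Dusp6, the ERK phosphatase that ERK signalling itself induces, averaged 24.6 ± 4.91 CPM in Ptprd+/- livers and 32.1 ± 5.21 CPM in Ptprd+/+ livers (SD, n = 3 each), with an adjusted p of 0.694 by edgeR. Its log2 fold change was -0.38, and with 1 library left out it ran from -0.54 without Ptprd+/- 3 to -0.25 without Ptprd+/+ 2. Trib1, a pseudokinase gene, had a log2 fold change of 0.32 (adjusted p 0.698 by edgeR), which was 0.17 without Ptprd+/- 3.

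Of 28 genes that carry signals to the immediate early promoters, all tested, 10 had a higher fitted level in Ptprd+/- livers and 18 a lower one, and the median log2 fold change was -0.085. Again 0 passed edgeR's adjusted test, and 2 had an unadjusted p under 0.05, both lower, where 3.77% of all tested genes did so in that direction. Elk4, an ETS factor that binds with SRF, had 29.6, 32.4 and 29.5 CPM in Ptprd+/- livers, against 35.9, 37.8 and 35.7 CPM in Ptprd+/+ livers (adjusted p 0.685 by edgeR). Rps6ka3, a kinase downstream of ERK, had 8.01, 10.5 and 10.8 CPM in Ptprd+/- livers, against 12.6, 13.03 and 12.1 CPM in Ptprd+/+ livers (adjusted p 0.693 by edgeR). The genotypes did not overlap for either gene, nor for Atf1, a CREB relative with a log2 fold change of -0.25. In all, 5 of the 28 were lower without overlap, where 6.72% of all tested genes were, and 1 was higher, where 7.15% were. Mkl2, a coactivator of SRF, had a log2 fold change of -0.37 with overlapping libraries. With 1 library left out it ran from -0.56 without Ptprd+/- 2 to -0.26 without Ptprd+/+ 1.

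Among 15 known MYC targets, all tested, 6 had a higher and 9 a lower fitted level in Ptprd+/- livers, the median log2 fold change was -0.042, and 0 passed edgeR's adjusted test. Across libraries the mean of the list was highest where Myc was, but over a narrower range, as centred log2 CPM of Myc ran from -1.25 in Ptprd+/+ 2 to 2.05 in Ptprd+/+ 3. Relative to their means over the 6 libraries, the log2 CPM of the 15 targets averaged 0.075, -0.093 and 0.12 in Ptprd+/- livers and -0.19, -0.13 and 0.22 in Ptprd+/+ livers, so that Ptprd+/+ 3 and Ptprd+/- 3 were again highest. Ptprd+/+ 3 was the highest library for 10 of the 15, among them the nucleolar genes Gnl3, Nop56 and Rrs1. The full library order of Myc was met by 0 of the 15, but an equal order of all 6 libraries is a strict demand, so this says little. The share of all tested genes highest in Ptprd+/+ 3 was not counted, and a link between Myc and these genes was not tested. The 3 with an unadjusted p under 0.05 were higher in Ptprd+/- livers, where 3.39% of all tested genes were so in that direction, and each of the 3 was highest in a Ptprd+/- liver. Cad, which starts pyrimidine synthesis, had 18.7, 17.6 and 18.7 CPM in Ptprd+/- livers, against 10.6, 14.4 and 12.9 CPM in Ptprd+/+ livers (adjusted p 0.617 by edgeR). Srm, spermidine synthase, and Ldha, lactate dehydrogenase A, had log2 fold changes of 0.43 and 0.40 with no overlap between genotypes, as had Cad, 3 of the 15 against 7.15% of all tested genes. Wdr43, a ribosome assembly factor, had a log2 fold change of -0.24 with overlapping libraries, which was -0.081 without Ptprd+/+ 3 and -0.39 without Ptprd+/+ 1.

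**Figure D4:**
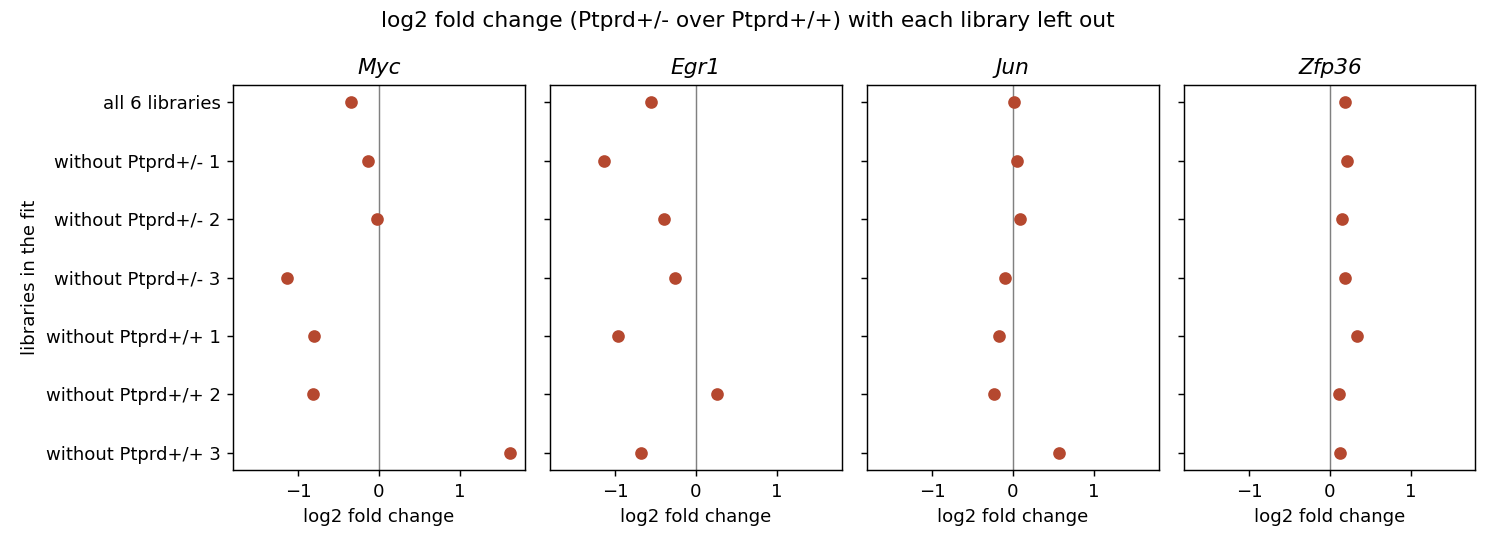
log2 fold change of Ptprd+/- over Ptprd+/+ livers (horizontal axis) for Myc, Egr1, Jun and Zfp36 with all 6 libraries and with each library left out in turn (rows). Myc ran from -1.14 without Ptprd+/- 3 to 1.61 without Ptprd+/+ 3, whereas Zfp36 stayed between 0.11 and 0.34.

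The influence of single libraries differed among the 10 genes. With each library left out in turn, log2 fold changes of Zfp36 ran from 0.11 to 0.34, of Ier2 from 0.16 to 0.38, of Klf6 from -0.28 to -0.085 and of Fos from -0.35 to -0.13, all on 1 side of 0. Those of Myc ran from -1.14 to 1.61, of Egr1 from -1.14 to 0.27 and of Jun from -0.23 to 0.57. Ptprd+/+ 3 had the most influence on whether genotypes overlapped. Without it, Jun, Ier2 and Myc were higher in all Ptprd+/- libraries than in both remaining Ptprd+/+ libraries and Fos was lower, 4 of 10 genes, where 25.2% of all tested genes did not overlap in that comparison of 3 with 2 libraries. With Ptprd+/- 3 and Ptprd+/+ 3 both left out, the same 4 genes did not overlap, and 38.4% of all tested genes did not. Without Ptprd+/- 1 Fosb was lower with no overlap, where 22.3% of all tested genes did not overlap, and without Ptprd+/- 2 Klf6 was, where 27.8% did not. Without Ptprd+/- 3 and without Ptprd+/+ 2, 0 of the 10 were separated, against 25.7% and 21.1%. Without both Ptprd+/- 2 and Ptprd+/- 3, Fosb and Ier2 were higher and Klf6 lower with no overlap, against 63.1% of all tested genes. None of the 10 passed edgeR's adjusted test with any library left out.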

How the data were processed

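The authors deposited a table of raw read counts per Ensembl gene, per the file headers, for 6 liver libraries made with a strand-specific poly(A) kit, per the labels' protocols. The submitters' processing notes name HTSeq (0.6.1p1), STAR (2.5.3a), DESeq2 (1.16.1), cutadapt (1.10), bcl2fastq (2.17.1.14) and the build mm10. The sources used here do not give the annotation release, strand setting or handling of multi-mapped reads. The deposited table also gives, per the file headers, each gene's median transcript length, in bases and of another kind than the counts. The authors' normalized columns and comparison table were not used.

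Genes were filtered with filterByExpr, which left 14606 genes with 99.955% of counts, scaled by TMM and fitted with edgeR 4.0.16 in R 4.3.3 (quasi-likelihood, genotype only, two-sided, Benjamini-Hochberg over all tested genes, threshold 0.05). Intervals use the fit's degrees of freedom. Log2 CPM used a prior count of 2. The tests were tried on simulated data. Alternatives were DESeq2 1.42.0, limma-voom (limma 3.58.1), RLE and upper-quartile scaling, 2 other filters, a replicate block, another prior count and each library left out. Members and lists were chosen with earlier results of these data known. Named genes were the 10 members and Ptprd, the 4 of each list with the smallest unadjusted p, and the 3 genes, of at least 1 CPM on average, most like Fos, Egr1, Jun, Ier3 and Myc in library pattern. That search left out the 10 members and genes with a Gm number or Rik name.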

Additional observations from a re-analysis of the deposited data

How the results depend on the processing

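Under the 15 alternatives that can change a fit, 0 of the 10 genes were called (DESeq2 tested 6 of them), and of 148 recomputed fold changes 130 kept their sign and 18 turned. The other prior count acts on log2 CPM only and leaves fold changes as they are. With 1 library left out, log2 fold changes reached -1.14 for Myc and Egr1, -0.58 for Fosb, 0.17 for Ier3 and 0.41 for Btg2. Fos, Klf6, Ier2 and Zfp36 kept theirs throughout. The log2 fold change of Myc turned to 0.50 with limma-voom, 0.23 with the replicate block, 1.61 without Ptprd+/+ 3 and 0.83 without both Ptprd+/- 3 and Ptprd+/+ 3. That of Egr1 turned to 0.27 without Ptprd+/+ 2 and 0.20 without both Ptprd+/- 2 and Ptprd+/- 3, and that of Btg2 to -0.083 without Ptprd+/- 2. Jun turned to -0.096, -0.17 and -0.23 without Ptprd+/- 3, Ptprd+/+ 1 and Ptprd+/+ 2, and to -0.060 without both Ptprd+/- 2 and Ptprd+/- 3. Ier3 turned to -0.20 without Ptprd+/- 3, -0.23 without Ptprd+/+ 1, -0.15 without both Ptprd+/- 2 and Ptprd+/- 3, and -0.044 without both Ptprd+/- 3 and Ptprd+/+ 3. Fosb turned to 0.012 and 0.075 without Ptprd+/- 2 and Ptprd+/- 3, and to 0.57 without both. Without both of these, Bhlhe41, Dbp and Mafg turned to -0.11, -0.64 and -0.019.

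The median log2 fold change of the 10 genes was -0.15 to 0.11 with a library left out and 0.11 with limma-voom. The range of their mean library pattern, 0.513, was 0.716 where 1 CPM was required in 3 or more libraries (which drops Fos and Fosb), 0.308 without both Ptprd+/- 3 and Ptprd+/+ 3 and 0.309 to 0.524 with 1 library left out. Genes whose genotypes do not overlap numbered 0 to 4 with 1 library left out, 3 without both Ptprd+/- 2 and Ptprd+/- 3 and 4 without both Ptprd+/- 3 and Ptprd+/+ 3, where 63.1% and 38.4% of all genes did not overlap. Over all tested genes edgeR called 0, and 0 to 1 with a library left out. DESeq2 called 61, with Ptprd and Junb among them. Without a filter edgeR called 73, with Ptprd, Junb, Nr1d1 and Dbp among them. The cause was not tested.

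Samples with the same replicate number did not deviate together in every pair (correlations of -0.068, 0.116 and 0.152 over genes). Samples with different numbers had correlations of -0.298 to 0.175. The labels do not say what the number stands for, and whether it marks a batch was not tested. With the replicate block, the pairing gave 0 called genes and a member median of 0.070. Depth limits Fos, Fosb and Ier3, which had under 100 reads in every library.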
